A study of Mus musculus with 9 samples.

Results

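The keratin family was followed across 3 stages of mouse embryonic stem cell differentiation. Its members were the array probe sets whose only gene symbol was Krt followed directly by a digit. This gave 54 probe sets for 53 genes, out of 22180 genes measured with a single symbol, and for Krt18, which had a pair of probe sets, the brighter was used. By textbook class, 6 were keratins of simple epithelia, 19 of stratified epithelia including the basal layer, 24 of the hair shaft and its root sheath, and 4 (Krt42, Krt88, Krt90 and Krt222) were left without a class. A further 2 probe sets carried a keratin symbol together with that of another gene and were not counted. Krt5, the usual partner of Krt14 and Krt15, was named only on such a shared probe set and so is not among the 53.

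All groups came from mouse embryonic stem cells carrying an Afp::GFP transgene, in which green fluorescent protein is driven by the promoter of Afp, the alpha-fetoprotein gene. The cells were grown as embryoid bodies, attached on gelatin in medium with serum, and reporter-positive cells were sorted by flow cytometry on days 4, 7 and 21. Each day had 3 arrays, and the labels do not say whether these came from separate cultures, so every p-value here reflects the spread among these 3 arrays a day, and that spread may be only technical. The reporter marks cells by the activity of a single promoter, so the sorted population can differ in makeup from day to day. In such bulk samples, fewer cells of a type and less RNA per cell cannot be told apart.

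Keratins form the intermediate filaments of epithelial cells. A filament is built from pairs of an acidic type I chain (Krt9 to Krt28 and the hair keratins of the same type) and a basic type II chain (Krt1 to Krt8 and their relatives). Krt8 and Krt18 are the keratins of the earliest embryonic epithelia, of yolk sac endoderm and of hepatocytes, whereas Krt7 and Krt19 are found in ducts and other simple epithelia. Krt5, Krt14 and Krt15 mark the basal layer of stratified epithelia, Krt6a, Krt16 and Krt17 are induced by stress or wounding, and Krt4 and Krt13 belong to moist mucosal linings.

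Array signals are given on a log2 scale, on which 1 unit is a 2-fold difference. As a reference for background, the 95th percentile of 1105 olfactory receptor genes, which are silent in most cells, averaged 6.06 on day 4, 6.06 on day 7 and 6.03 on day 21. A gene is called above background where its mean on that day exceeds this value. Signals of different probe sets are not comparable as transcript amounts, so each keratin is compared only with itself across days. Afp itself was below this background at day 4, with log2 signals of 5.93, 5.62 and 5.62 on the 3 arrays. It stood between 10.54 and 10.68 on day 7 and between 12.95 and 13.14 on day 21. Of 8 visceral endoderm markers, 4 (Afp, Ttr, Apoa1 and Cubn) were below background at day 4, and all 8 were above it on days 7 and 21. Correlation across genes between arrays of the same day lay between 0.984 and 0.991, and between arrays of different days it lay between 0.938 and 0.971.

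Promoter sequences are shown for keratins that behaved differently in the sorted cells. Krt20, Krt23, Krt14 and Krt7 passed the test after day 7 and not before it, and Krt8 and Krt18 were well above background from day 4. The windows are the 150 bases before the annotated start in RefSeq, build GRCm38.p6, written 5′ to 3′ on the gene's own strand. Capitals mark matches, on either strand, to TATAAA (the letters of a TATA box), TGANTCA (those of an AP-1 site) or GGGCGG (those of a GC box), and none of these matches overlapped.
Krt20: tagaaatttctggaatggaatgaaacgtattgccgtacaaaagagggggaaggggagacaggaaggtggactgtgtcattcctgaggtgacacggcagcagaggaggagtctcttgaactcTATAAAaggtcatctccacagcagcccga
Krt23: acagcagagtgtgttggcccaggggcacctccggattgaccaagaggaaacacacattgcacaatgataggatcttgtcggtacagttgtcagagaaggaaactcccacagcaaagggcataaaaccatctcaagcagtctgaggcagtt
Krt14: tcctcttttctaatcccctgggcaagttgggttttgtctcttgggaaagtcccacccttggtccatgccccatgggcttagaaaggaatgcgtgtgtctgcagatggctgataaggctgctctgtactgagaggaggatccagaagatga
Krt7: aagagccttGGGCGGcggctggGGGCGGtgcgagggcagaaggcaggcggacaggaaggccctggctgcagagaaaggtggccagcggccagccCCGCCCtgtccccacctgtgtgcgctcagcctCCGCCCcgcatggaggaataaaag
Krt8: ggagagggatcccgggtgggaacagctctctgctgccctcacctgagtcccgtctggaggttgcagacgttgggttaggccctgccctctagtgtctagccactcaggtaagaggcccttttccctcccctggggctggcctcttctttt
Krt18: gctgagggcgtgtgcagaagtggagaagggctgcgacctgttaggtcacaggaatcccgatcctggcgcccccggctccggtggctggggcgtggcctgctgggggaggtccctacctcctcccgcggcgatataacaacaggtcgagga
The windows lie at chr11:99438154-99438303, chr11:99493121-99493270 and chr11:100206031-100206180 on the minus strand, at chr15:101412253-101412402 on the plus strand, at chr15:102004343-102004492 on the minus strand and at chr15:102028066-102028215 on the plus strand, in the order printed. Krt20 has TATAAA beginning 29 bases before the start, and its neighbour Krt23 has none of the 3 motifs. Krt7 has 4 matches to GGGCGG, and the windows of Krt14, Krt8 and Krt18 hold no match. Among the 35 keratins with a promoter in the table (with the earlier entry used for Krt13, which has more than 1), TATAAA was present in 15 (42.9%), against 8.08% of 27025 promoters of the same length. It was found in 11 of 17 hair keratin promoters (64.7%), 3 of 11 stratified and 1 of 5 simple keratin promoters. GGGCGG was present in 2 of 35, Krt7 and Krt75, against 29.0% of all promoters, and TGANTCA in 0 of 35, against 4.27%. No promoter was available for Krt15, Krt17, Krt4, Krt6a, Krt16 or Krt19, so these shares do not cover those risers. A match is a description of letters and was not tested for binding.

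Between days 4 and 7, the only keratin that passed the test was Krt18, which rose 2.25-fold. That is 1 of 53 keratins risen and 0 fallen, where 6.98% of all genes rose and 6.47% fell. The median log2 change was 0.06 over the keratins and -0.01 over all genes. Between days 7 and 21, 12 keratins rose and 0 fell, against 12.4% of all genes risen and 10.7% fallen. Between days 4 and 21, 15 rose and 0 fell, against 15% and 14.1% of all genes. At an unadjusted p under 0.05, limma gave 3, 12 and 16 keratins higher and 0, 0 and 1 lower in the 3 comparisons. The share of keratins called, all of them rises, was 22.6% in the second interval and 28.3% over the whole course. Over all genes, with rises and falls together, it was 23% and 29.1%, so the total share was alike. Keratin medians were 0.02 and 0.12, so most keratins kept near their own starting signal. Of the 53, 12 were above background at day 4 and 14 at day 7, so for most members a fall would have had to start from the floor. Each pair of comparisons has the arrays of 1 day in common. With at least a 2-fold change required as well, 1, 9 and 11 keratins were called, against 3.41%, 6.45% and 8.01% of all genes.

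By the arrays alone, 4 keratins were higher on all 3 day 7 arrays than on any day 4 array and 0 were lower, where 29.9% of all genes did not overlap (14% higher, 15.9% lower). From day 7 to day 21, 15 were higher without overlap and 1 lower, against 35.5% of all genes (17.1% higher, 18.4% lower). From day 4 to day 21, 16 were higher and 0 lower, against 40.4% of all genes (19.4% higher, 21% lower). As an alternative, each array was centred on the median of its probe sets with 1 gene symbol. This centring shifted the median of all genes from -0.03 to -0.13 for day 21 against day 7, and likewise against day 4. With it, 38.2% and 37.7% of all calls were rises, in place of 53.7% and 51.6%. Under this scaling 12 keratins still rose by day 21 from day 7 and 1 (Krt90) fell, and 13 rose and 1 (Krt222) fell from day 4.

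**Figure D1:**
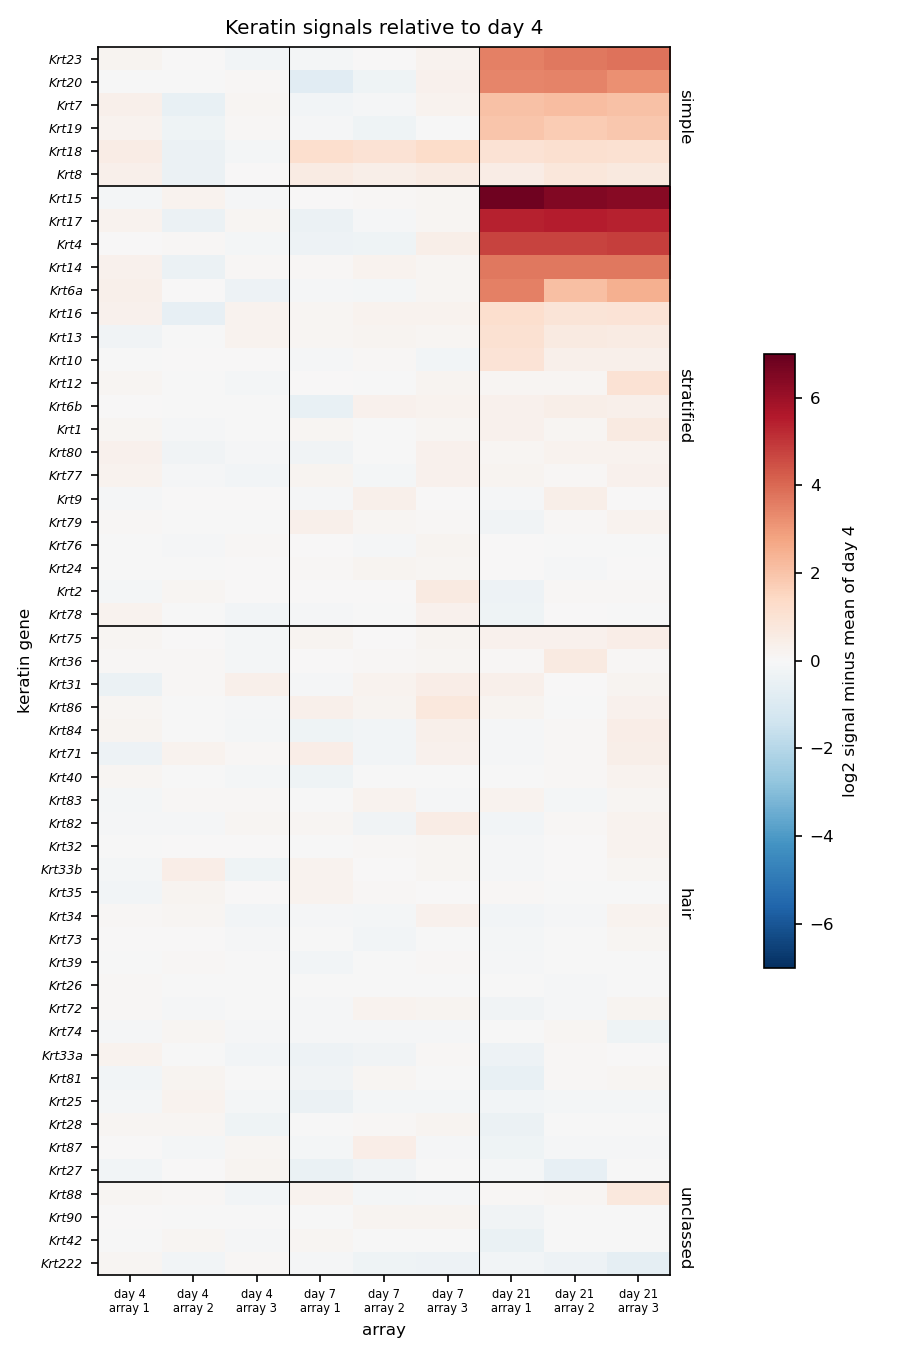
Heat map of all 53 keratins (rows, grouped by class) on the 9 arrays (columns); colour gives the log2 signal minus the gene's own day 4 mean. The simple and stratified blocks hold the dark day 21 cells, led by Krt15 at 6.55 above day 4, while the 24 hair keratins have day means that differ by at most 0.43.

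The simple keratins were the class with the broadest change: 6 of 6 measured members were higher at day 21 than at day 4, where 15% of all genes rose. They divided into a pair that was bright throughout and 4 that rose after day 7. Krt18 (probe set 17315245), the type I keratin that pairs with Krt8, had log2 signals of 11.03, 10.13 and 10.41 at day 4, 11.72, 11.53 and 11.83 at day 7, and 11.53, 11.67 and 11.58 at day 21. The day 4 arrays lay below all 6 later arrays, which overlapped each other. It rose by 1.17 ± 0.19 (SE) on the log2 scale from day 4 to day 7 (limma adjusted p = 0.00212). From day 7 to day 21 its change of -0.10 ± 0.19 did not pass. The dimmer Krt18 probe set (17322125), tested among all probe sets, changed by 0.87 ± 0.18 in the first interval (limma adjusted p = 0.0143) and by 0.20 ± 0.18 in the second (limma adjusted p = 0.545).

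Krt8 (17322113), the type II partner of Krt18, read 10.92, 10.16 and 10.58 at day 4, 11.12, 10.96 and 11.13 at day 7, and 11.09, 11.37 and 11.25 at day 21. Here too the day 4 arrays lay below the later ones, by a narrow margin for the highest of them. The change to day 7, 0.52 ± 0.17, did not pass (limma adjusted p = 0.0781), and the change from day 4 to day 21, 0.69 ± 0.17, did (limma adjusted p = 0.0116). The day 7 change of Krt8 was 0.70 without day 4 array 1 (limma adjusted p = 0.0155) and 0.32 without day 4 array 2 (limma adjusted p = 0.229). On all 9 arrays it passed with dim genes left out (limma adjusted p = 0.0368) or with an intensity trend in the fit (limma adjusted p = 0.0411). Day 4 array 2 was the lowest of its day for 7 of the 15 called keratins, among them Krt8, Krt18, Krt19 and Krt7. The share of all genes lowest on that array was not counted. Without day 4 array 2 the Krt8 change from day 4 to day 21 was 0.49 (limma adjusted p = 0.0323). The Krt18 change from day 4 to day 7 was then 0.98 (limma adjusted p = 0.00727).

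Krt19 and Krt7, keratins of ducts, glands and other simple epithelia, were above background on all 3 days and passed in the second interval, not in the first. Krt19 (17269368) read 8.64, 8.08 and 8.48 at day 4, 8.34, 8.08 and 8.39 at day 7, and 10.32, 10.16 and 10.27 at day 21. The first 2 days overlapped and every day 21 array stood above them, a 3.96-fold rise from day 7 (1.98 ± 0.15, limma adjusted p = 5.44e-06). Krt7 (17315200) read 6.99, 6.10 and 6.75, then 6.44, 6.53 and 6.88, then 8.68, 8.75 and 8.64. Its 4.21-fold rise from day 7 (2.07 ± 0.20, limma adjusted p = 3.78e-05) followed a first interval with a change of 0.00 ± 0.20.

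Krt20 and Krt23 differed from these in starting below background. Krt20 (17269085), a type I keratin of intestinal lining and of the surface cells of the urothelium, read 5.08, 5.11 and 5.19 at day 4, 4.33, 4.80 and 5.42 at day 7, and 8.54, 8.61 and 8.32 at day 21. Krt23 (17269096), a type I keratin of some glandular epithelia, read 5.23, 5.08 and 4.83, then 4.92, 5.06 and 5.27, then 8.57, 8.76 and 8.85. For each the 3 day 21 arrays lay far above the other 6. The rises from day 7 were 3.64 ± 0.22 for Krt20 (limma adjusted p = 1.20e-06) and 3.64 ± 0.14 for Krt23 (limma adjusted p = 4.99e-08). Since they start from a mean below background, these sizes set a day 21 signal against a floor.

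**Figure D2:**
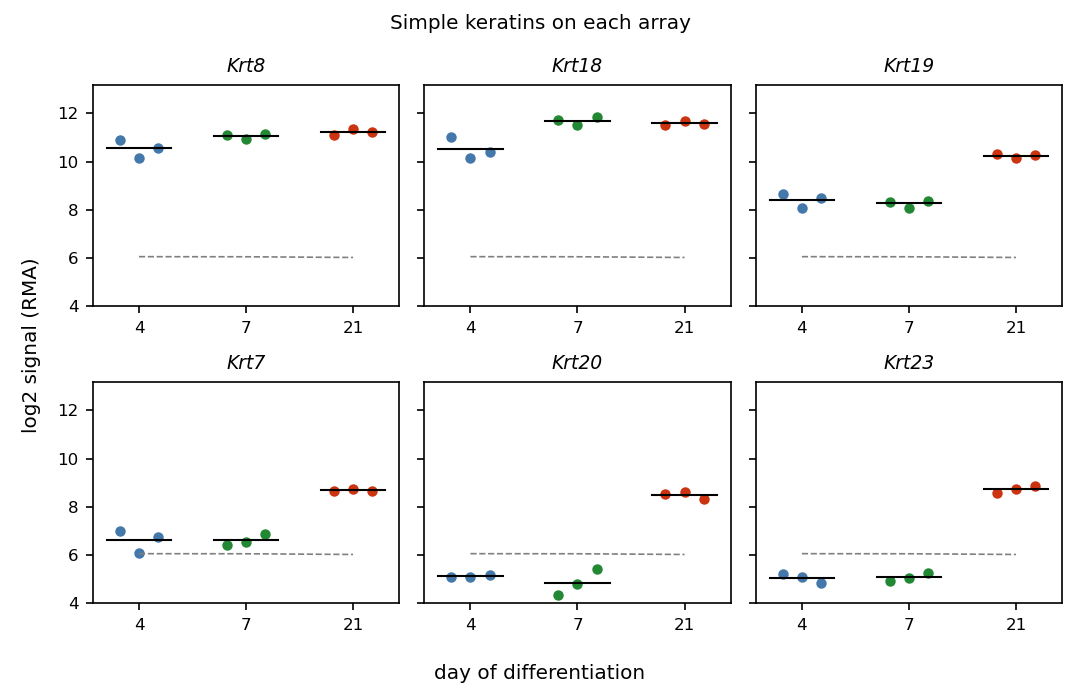
Log2 signal (vertical axis) of the 6 simple keratins on days 4, 7 and 21; points are arrays in replicate order, black bars are means of 3 and the dashed line is the background reference. Krt8 and Krt18 are above 10 on every array, and Krt20 and Krt23 cross the reference only at day 21.

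Keratins of stratified epithelia were mostly at background until day 21. Of 19 measured, 1 (Krt10) was above background at day 4, 2 at day 7 (Krt10 and Krt12) and 9 at day 21. Between days 4 and 7, 0 passed by limma's adjusted p and 0 had an unadjusted p under 0.05. In the next interval 8 (42.1%) rose and 0 fell, where 12.4% of all genes rose and 10.7% fell. The class median change was 0.37 against -0.03 over all genes. The same 8 rose from day 4 to day 21, where 15% of all genes rose.

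Both measured basal-layer keratins rose. Krt15 (17269358), a type I keratin of basal cells, read 5.58, 5.96 and 5.66 at day 4, 5.77, 5.83 and 5.86 at day 7, and 12.52, 12.21 and 12.11 at day 21. Its change from day 7, 6.46 ± 0.13 (limma adjusted p = 2.83e-09), was the largest of the 53. Krt14 (17269391), the principal type I keratin of basal keratinocytes, read 6.02, 5.30 and 5.79, then 5.81, 5.96 and 5.84, then 9.42, 9.38 and 9.37. It rose 11.5-fold from day 7 (3.52 ± 0.16, limma adjusted p = 1.61e-07), and its day 21 arrays spanned less than those of any earlier day. For both genes days 4 and 7 were below background and overlapped, so the folds are set against a floor.

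Among the stress and wound keratins, Krt17 (17269415) stood at 5.74, 5.06 and 5.63, then 5.04, 5.38 and 5.64, then 10.89, 11.00 and 10.84. This was a change of 5.56 ± 0.19 from day 7 (limma adjusted p = 2.89e-08). Krt6a (17321951), a type II keratin induced in injured epithelium, rose from 4.78, 4.70 and 4.96 at day 7 to 8.37, 6.96 and 7.33 at day 21. Its day 21 arrays differed by more than those of any other keratin, a range of 1.41, but all stood above the earlier ones (2.74 ± 0.31, limma adjusted p = 9.64e-05). Krt16 (17269404), its type I partner, moved from 4.93, 5.06 and 5.07 to 5.97, 5.72 and 5.77, a change of 0.79 ± 0.20 (limma adjusted p = 0.0147), and its day 21 mean of 5.82 was still below background. Without day 7 array 1 or day 21 array 1, the Krt16 change did not pass (limma adjusted p = 0.0537 and 0.0562). Krt6b read 4.72, 4.83 and 4.75 at day 21, below background, and its change from day 7 of 0.37 did not pass. Its change from day 4, also 0.37, did not pass either (limma adjusted p = 0.181). The latter passed in a fit to only the days compared (limma adjusted p = 0.0213) or without day 7 array 1 (limma adjusted p = 0.0136). Krt6a and Krt6b, and likewise Krt14, Krt16 and Krt17, have closely similar sequences, and signal shared between their probe sets was not tested.

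The mucosal keratins were represented by Krt4, Krt13 and the corneal Krt12. Krt4 (17322075), the type II keratin of the oral and oesophageal lining, read 5.24, 5.29 and 5.05, then 4.82, 4.87 and 5.61, then 9.95, 9.94 and 10.05. It rose by 4.88 ± 0.19 from day 7 (limma adjusted p = 5.29e-08), the largest log2 difference of a type II keratin. Its mean on days 4 and 7 was below background, as were those of Krt17, Krt6a and Krt13, so these differences too are set against a floor. Krt13 (17269347), the type I chain that pairs with Krt4, read 5.17, 5.37 and 5.63, then 5.53, 5.59 and 5.52, then 6.47, 6.02 and 5.97. Its change from day 7 was 0.61 ± 0.15 (limma adjusted p = 0.0155), and only its highest day 21 array lay clearly above background. Krt12 read 6.15, 6.15 and 7.03 at day 21, and its change of 0.38 from day 7 did not pass.

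Of 7 suprabasal and cornifying keratins, 1 (14.3%) rose between days 7 and 21, near the 12.4% of all genes that rose. This was Krt10 (17269064), the type I keratin of differentiating epidermal layers, which read 6.60, 6.79 and 6.52 at day 7 and 7.67, 7.08 and 7.07 at day 21 (0.63 ± 0.16, limma adjusted p = 0.0145). Leaving out day 7 array 3 gave a limma adjusted p of 0.0563 for this change. Against day 4 the Krt10 change was 0.57, and it was 0.37 without day 21 array 1. Against day 4 it did not pass without day 4 array 1 or 2 (limma adjusted p = 0.0607 and 0.0525). Krt1, the type II partner of Krt10, changed by 0.26 from day 7 and did not pass. Its day 21 mean of 6.10 was above background. The Krt1 change from day 4 to day 21, 0.36, did not pass (limma adjusted p = 0.0785). This change passed with dim genes left out (limma adjusted p = 0.0416) or without day 21 array 2 (limma adjusted p = 0.0435). Krt2, Krt9, Krt76, Krt77 and Krt78 also did not pass in any comparison, nor did Krt24, Krt79 and Krt80.

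**Figure D3:**
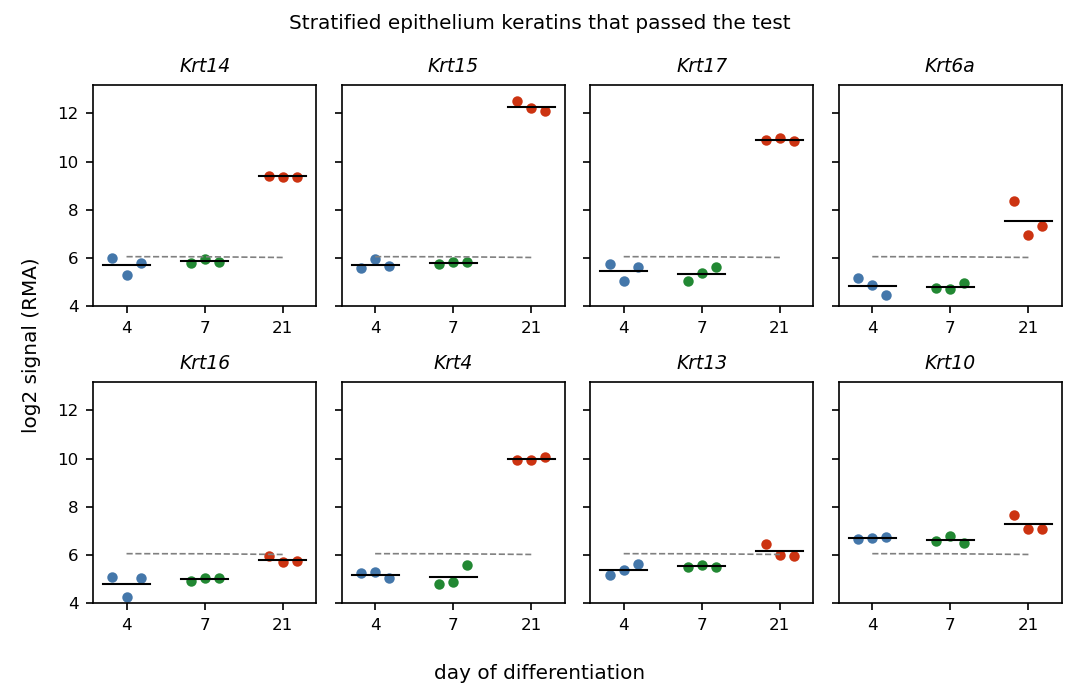
Log2 signal (vertical axis) of the 8 stratified keratins that passed between days 7 and 21, by day; points are arrays in replicate order, black bars are means of 3 and the dashed line is the background reference. Krt15, Krt17, Krt4 and Krt14 stand at 9.37 or higher on every day 21 array, while Krt16, Krt13 and Krt10 move by less than 1 from day 7.

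The chains of a filament pair are set side by side here, and the differences between them were not tested. From day 7 to day 21 Krt8 changed by 0.17 ± 0.17 and Krt18 by -0.10 ± 0.19, neither passing, while Krt7 and Krt19 rose by 2.07 ± 0.20 and 1.98 ± 0.15. Krt4 rose by 4.88 ± 0.19 and Krt13 by 0.61 ± 0.15, and Krt6a rose by 2.74 ± 0.31 and Krt16 by 0.79 ± 0.20. Krt10 rose by 0.63 ± 0.16, and Krt1 changed by 0.26 ± 0.14 without passing. For Krt14 and Krt15 no value of the Krt5 partner is assigned.

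The hair keratins showed little change. Of 24 measured, 0 passed limma's adjusted test between days 4 and 7 or between days 7 and 21, and at an unadjusted p under 0.05 there were 1 and 0. From day 4 to day 21, 1 passed (4.17%). Over all genes 13.4%, 23% and 29.1% passed in the 3 comparisons. Class medians were 0.06, -0.01 and -0.0017 in them. The class ran from -0.27 to 0.25 between days 7 and 21. The member that passed was Krt75 (17321907), the type II keratin of the companion layer around the hair shaft, at 5.21, 5.11 and 4.96 on day 4 and 5.41, 5.40 and 5.54 on day 21 (0.36 ± 0.10, limma adjusted p = 0.0240). All 9 of its values were below background, and the call was lost on leaving out day 4 array 2 (limma adjusted p = 0.0584), day 4 array 3 (0.0918) or day 21 array 3 (0.0645). Krt32, Krt33a, Krt34, Krt73 and Krt81 were above the reference on all 3 days and Krt35 on days 7 and 21. Their means reached at most 6.62 (Krt73 at day 4), and none of these 6 changed by more than 0.16 between any 2 days. Krt86 had the largest change of the class, 0.43 from day 4 to day 7, and did not pass (limma adjusted p = 0.0896). The hair shaft keratins Krt31, Krt33b, Krt36, Krt39, Krt40, Krt82, Krt83, Krt84 and Krt87 and the root sheath keratins Krt25, Krt26, Krt27, Krt28, Krt71, Krt72 and Krt74 were below background on every day and did not pass. Of the unclassed genes, Krt42 and Krt88 were above background throughout, with means between 6.44 and 6.75, and 0 of 4 passed in any comparison by limma's adjusted test. At an unadjusted p under 0.05, 1 of the 4 (Krt222, from day 4 to day 21, -0.37) was lower.

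Position along the chromosome was not used to choose the genes. In RefSeq order, 27 measured keratins lie in the type I cluster on chromosome 11 and 25 in the type II cluster, with Krt18 at its end, on chromosome 15. Between days 7 and 21, 9 of the 27 (33.3%) and 3 of the 25 (12%) rose, against 12.4% of all genes, so the type II cluster was at the share of all genes. The last 8 genes of the type I cluster, a run singled out after its values were seen, are Krt13, Krt15, Krt19, Krt9, Krt14, Krt16, Krt17 and Krt42, and 6 of them rose, while Krt9 (0.01) and Krt42 (-0.20) did not pass. The other 3 type I risers were Krt10 and the neighbours Krt20 and Krt23, with Krt12 between Krt10 and Krt20. The 7 hair keratins from Krt33a to Krt36, next to Krt13, did not pass. In the type II cluster the risers Krt7, Krt6a and Krt4 each had neighbours that did not pass, among them Krt80 and Krt87 beside Krt7 and Krt76 and Krt79 beside Krt4. Krt8 and Krt18, which are of different type and lie side by side, did not pass in this interval and both rose from day 4 to day 21.

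**Figure D4:**
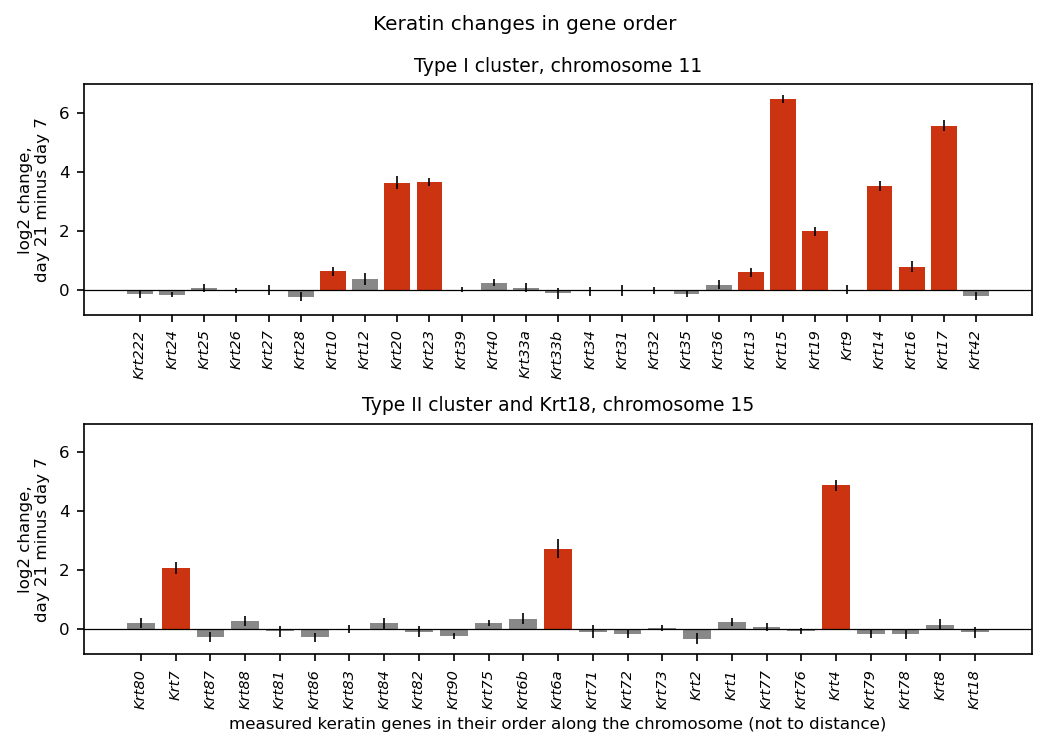
Log2 change from day 7 to day 21 (bars, with SE) for the 52 keratins placed by RefSeq, in gene order along chromosomes 11 and 15; red bars passed the limma test and horizontal spacing is not distance. Of the last 8 genes on chromosome 11, 6 are red, and the hair keratins before them stay near 0.

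Genes that act with keratins were followed as separate lists. Of 20 junction and linker genes that anchor keratin filaments, 4 rose and 2 fell by day 7, with 14 not passing, and 15 rose and 0 fell between days 7 and 21, with 5 not passing. Over all genes the shares called in those intervals were 13.4% and 23%. The median change of the list was -0.03 in the first interval and 0.71 in the second. By day 7 the desmosomal genes Dsg2, Pkp2 and Dsc2 rose by 1.17 ± 0.18, 1.08 ± 0.16 and 0.88 ± 0.16. In the second interval the largest rises were those of Ppl (periplakin, 2.20 ± 0.15), Itgb4 (the hemidesmosome integrin, 1.91 ± 0.12), Perp (a desmosome-associated membrane protein, 1.15 ± 0.13) and Dsg3 (1.09 ± 0.14). By day 7 Perp had fallen, with a change of -0.50 ± 0.13, and Dsg3 had changed by -0.37 ± 0.14 without passing. From day 4 to day 21, Perp and Dsg3 rose by 0.65 ± 0.13 and 0.73 ± 0.14. Dsg3, the desmoglein of basal layers, was still below background at day 21, as were Dsg1a, Dsc1 and Dsc3. From day 4 to day 21, 15 of the 20 rose and 0 fell, against 15% of all genes risen and 14.1% fallen.

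Among 14 measured regulators of stratified and barrier epithelium, 2 rose and 1 fell by day 7, 8 rose and 1 fell between days 7 and 21, and 10 rose and 1 fell from day 4 to day 21. Ehf, an epithelial Ets factor, rose from 5.21, 5.57 and 5.60 at day 7 to 8.95, 9.40 and 9.05 at day 21. Klf5, Grhl3 and Grhl2 rose by 1.96 ± 0.12, 1.93 ± 0.24 and 1.77 ± 0.17 from day 7. By day 7 Klf5 had fallen, with a change of -0.78 ± 0.12, and Grhl3 had changed by -0.53 ± 0.24 without passing. From day 4 to day 21 these 2 rose by 1.18 ± 0.12 and 1.40 ± 0.24. Trp63, which encodes p63, the regulator of basal epithelial identity, rose from 5.51, 5.42 and 5.70 to 6.77, 6.61 and 6.72 (1.16 ± 0.10, limma adjusted p = 2.09e-05). Tfap2a, a regulator of surface ectoderm, fell by 0.61. The share of all genes called was 13.4% from day 4 to day 7, 23% from day 7 to day 21 and 29.1% from day 4 to day 21. Of 9 cornification genes, 0 rose and 1 fell by day 7, 2 rose and 0 fell between days 7 and 21, and 2 rose and 1 fell from day 4 to day 21. The risers after day 7 were Sprr1a (3.66 ± 0.25) and Ivl, involucrin (1.53 ± 0.15), while Lor and Flg did not pass, and the 22.2% called in that interval was near the share of all genes. Of 15 other intermediate filament genes, 1 rose and 3 fell by day 7, 2 rose and 2 fell from day 7 to day 21, and 2 rose and 7 fell from day 4 to day 21. Their 26.7% called from day 7 to day 21 was also near that of all genes. From day 4 to day 21, 60% were called, against 29.1% of all genes, of which 14.1% fell. By day 7, Nes changed by -1.06 ± 0.18, Ina by -0.96 ± 0.14 and Vim, the filament of mesenchymal cells, by -0.70 ± 0.11. Lmna, of the nuclear lamina, rose by 0.41 ± 0.09. After day 7, Nefl and Nefm changed by -1.60 ± 0.13 and -1.03 ± 0.17, and both were below background at day 21. Lmna and Gfap rose by 0.65 ± 0.09 and 0.61 ± 0.15 after day 7, and Vim changed by 0.04 ± 0.11.

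Some markers of cell types that a sort could hold moved between days 7 and 21, as most called keratins did, and some moved earlier. By day 7 all 8 visceral endoderm and 3 of 7 hepatoblast markers rose, and of 4 endothelial markers 2 rose and 1 fell. Over all genes 6.98% rose and 6.47% fell by day 7. All 5 surface ectoderm markers also stand in the partner or regulator lists, and the hepatoblast and visceral endoderm lists both hold Afp and Hnf4a. Over all genes, 12.4% rose and 10.7% fell from day 7 to day 21, the interval of the counts that follow, and the shorter lists hold too few genes for a share to be read closely. Of 6 mesothelial markers, 4 rose and 1 fell between days 7 and 21, and the mean log2 signal of the list went from 5.68 to 5.89 at day 7 to 7.22 to 7.48 at day 21. Upk1b and Msln rose by 5.46 and 3.22, whereas Wt1 changed by 0.14 without passing and Lrrn4 changed by -1.89. All 7 stromal markers rose, from list means of 6.13 to 6.29 to means of 9.51 to 10.60. Of these, Pdgfra had changed by -1.30 by day 7, and its change from day 4 to day 21 did not pass. The stromal means differed among the day 21 arrays, at 10.60, 10.01 and 9.51. Of the 15 called keratins, 7 (Krt6a, Krt13, Krt10, Krt14, Krt15, Krt16 and Krt19) were highest on day 21 array 1. Another 5 (Krt7, Krt8, Krt17, Krt18 and Krt20) were highest on array 2 and 3 (Krt4, Krt23 and Krt75) on array 3. Some of these differences were small, as for Krt14 (9.42, 9.38 and 9.37). The share of all genes highest on each array was not counted, so no link to the stromal means can be read from this. All 4 measured cholangiocyte markers rose (means of 6.33 to 6.57 against 8.26 to 8.62). Among them Sox9 had changed by -1.30 by day 7, and its change of -0.10 from day 4 to day 21 did not pass. Of 5 surface ectoderm markers 3 rose and 1 fell, with means of 5.86 to 5.92 against 6.40 to 6.60, and Dsg3, Dsc3 and Tfap2a were below background at day 21. Of 6 trophoblast markers 1 rose and 3 fell (means of 6.44 to 6.52 against 5.86 to 6.20), and Cdx2, Elf5, Eomes and Ascl2 were below background. Of 7 hepatoblast markers 3 rose and 1 fell (means of 7.76 to 7.83 against 8.98 to 9.01). Of 8 visceral endoderm markers 1 (Afp) rose and 7 fell (means of 10.20 to 10.24 against 9.33 to 9.41). Of 3 leukocyte markers 1 (Laptm5) rose, with means of 4.96 to 5.20 against 5.32 to 5.70, and Ptprc and Tyrobp were below background. Of 4 endothelial markers 0 rose and 3 fell (means of 6.96 to 7.24 against 6.11 to 6.50). The part of any of these cell types in the keratin rises was not tested.

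**Figure D5:**
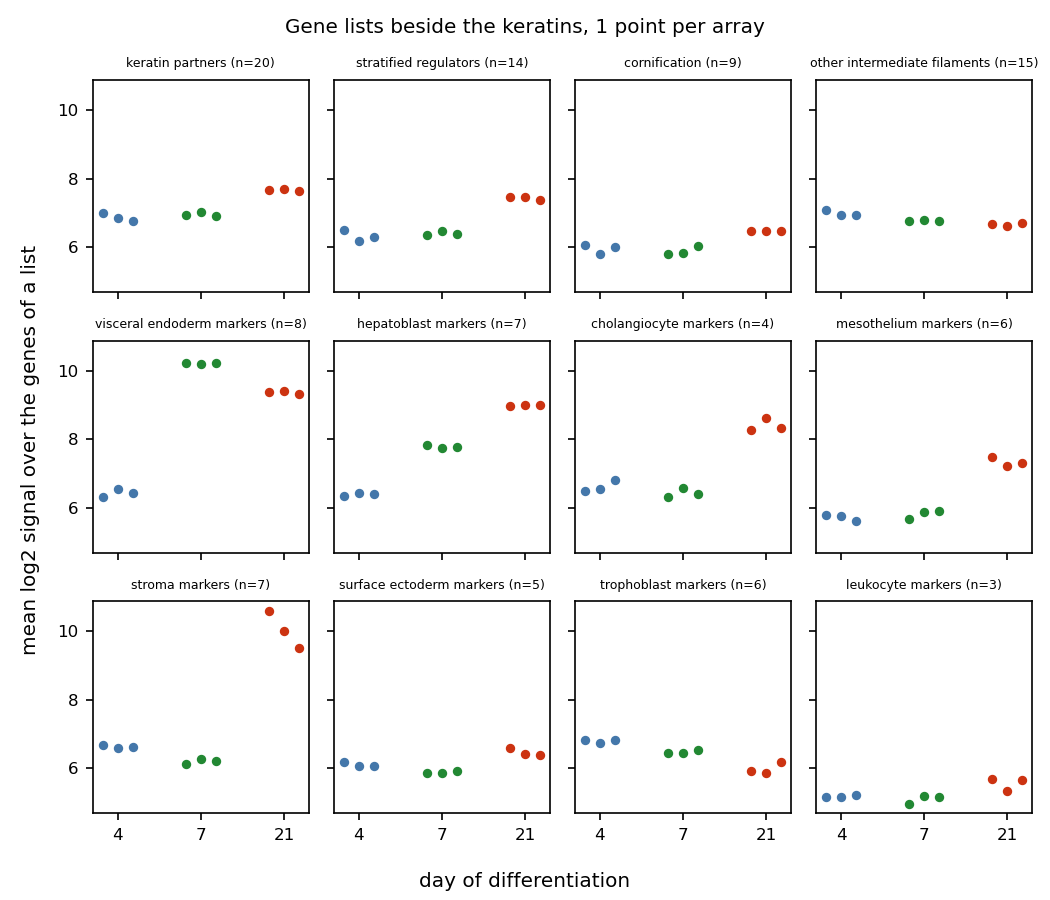
Mean log2 signal over the genes of 12 lists (vertical axis) on days 4, 7 and 21, with 1 point per array in replicate order; n is the number of measured genes. Keratin partners and stratified regulators are higher at day 21, as are the stromal, mesothelial and cholangiocyte lists, and the 3 stromal points of day 21 are spread from 9.51 to 10.60.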

How the data were processed

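RNA from sorted cells was measured on 9 Affymetrix arrays, 3 per day. The values deposited by the authors are log2 signals per probe set. The submitters' processing notes name RMA and Affymetrix Expression Console, without a version in the sources used here. RMA makes the arrays' distributions alike, so a rise or fall shared by most transcripts would be hidden. Per the labels' protocols, labelling started from very little RNA with the WT Pico kit, and such amplification can distort ratios of dim transcripts. Array medians over all probe sets lay between 5.88 and 5.98, and arrays give no counting depth.

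Of 34365 probe sets, 23521 carried 1 gene symbol in the platform annotation, 1814 several and the rest none here. The probe set with the highest mean was kept per gene, leaving 22180 genes. The 3 days were modelled together on 9 arrays in limma 3.58.1 under R 4.3.3 (lmFit and eBayes, two-sided). Benjamini-Hochberg adjustment ran over all genes of a comparison, and an adjusted p under 0.05 counted as passing. SE is that of the model. Gene names, order and promoters came from RefSeq GRCm38.p6, to which 52 of 53 keratins matched by symbol. Array annotation coordinates were not used.

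Promoter windows were kept to the 150 bases before the start, shorter than first planned on both sides. This leaves out transcribed sequence, and also upstream bases that were not searched for matches. The fit was tested on simulated data for day 7 against day 4, with 200 of 22180 genes changed. It recovered 26% of log2 changes of 0.5, 88% of those of 1 and 100% of those of 2 or 4, with 12 false calls. In the data 13.4% of all genes passed in this comparison, a larger share than was changed in the simulation. The adjustment depends on that share, so these rates need not hold for the data. A small keratin change that did not pass may still have been missed. Alternatives were median centring, quantile normalization, other choices of probe set, leaving out dim genes, an intensity trend, a fit to only the days compared, a replicate block and leaving out each array.

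Every keratin is accounted for, and those that passed or lay above background on any day (23 lay above it) are named. Genes outside the family come from fixed lists: keratin partners, stratified epithelium regulators, cornification genes, other intermediate filament genes and markers of visceral endoderm, hepatoblasts, cholangiocytes, mesothelium, stroma, trophoblast, surface ectoderm, leukocytes and endothelium. Up to 4 called members with the largest changes are named per list, besides those named because they bear on a keratin result. The members and lists were chosen with earlier results of these data known, as was the background reference.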

Additional observations from a re-analysis of the deposited data

How the results depend on the processing

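Of 28 keratin changes that passed, 24 kept their direction and stayed past the threshold under every alternative that gave a value (up to 17 each), and 0 reversed. The exceptions are Krt10 in both later comparisons, Krt16 from day 7 to day 21 and Krt75 from day 4 to day 21. Median centring ended the calls of Krt10 and Krt75 against day 4 (adjusted p = 0.0513 and 0.0831 by limma). Leaving out dim genes left Krt16 and Krt75 untested. Between days 4 and 7 the count of called keratins was 1, and it was 2 with dim genes left out and 2 with an intensity trend, the addition being Krt8. Leaving out each array gave 1 to 2 keratins in that comparison, 11 to 12 from day 7 to day 21 and 14 to 16 from day 4 to day 21. At an adjusted p under 0.01 the counts were 1, 9 and 12, and with at least a 2-fold change they were 1, 9 and 11.

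With the replicate block (arrays of the same number treated as paired) the counts were 1, 12 and 16, the added gene being Krt222, which fell from day 4. The labels do not say that a replicate number marks a shared culture, so the numbers were not taken as pairs in the main fit. Same-numbered arrays deviated together by over 0.1 in 2 of 9 pairs (correlations of -0.05 to 0.26). Between days 7 and 21 each array correlated best with its own number (0.08, 0.14 and 0.26, against -0.18 to 0.07 for other numbers), a hint from the data and not from the design.

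Sign changes touched only changes that had not passed. Between days 4 and 7, leaving out each array gave -0.034 to 0.33 for Krt14, -0.062 to 0.36 for Krt16, -0.33 to 0.036 for Krt17, -0.070 to 0.13 for Krt23, -0.35 to 0.045 for Krt4, -0.21 to 0.14 for Krt6a and -0.25 to 0.19 for Krt7. Median centring gave -0.0066 for Krt7. From day 7 to day 21 the mean of both probe sets gave 0.052 for Krt18. The cause was not tested. Array signals near background limit the size of the changes from days 4 and 7.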

Other observations

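A probe set annotated to both Krt5 and Krt6a (17321966) read 5.61, 5.47 and 5.46 at day 4, 5.78, 5.33 and 5.68 at day 7, and 7.64, 7.30 and 7.75 at day 21. Its change from day 7 was 1.96 ± 0.15 (limma adjusted p = 1.91e-05 over all probe sets), and its signal cannot be assigned to either gene. Its highest day 21 array was array 3, whereas the probe set of Krt6a alone was highest on array 1. A probe set annotated to Krt6b together with Gm5478 (17321931) changed by -0.18 ± 0.25 from day 7 to day 21 and did not pass.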
